A study of Homo sapiens with 6 samples.

Results

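The sodium, potassium and calcium channel genes are the genes of the pore-forming and accessory subunits of the channels that let these ions cross the cell membrane. They were taken by symbol from the RefSeq gene table, among coding genes of chromosomes 1 to 22 and X: symbols starting with KCN, with SCN followed by a digit, or with CACNA, CACNB or CACNG. This gave 136 of 19974 genes. A peak was counted for a gene when its summit lay inside the gene or within 20 kb of either end. The data are NRF2 chromatin immunoprecipitation libraries (ChIP-seq) from HMC3, an established human microglial cell line, immunoprecipitated with the same antibody to NRF2. The groups were 2 vehicle libraries and 2 libraries of cells given CDDO-Im, a synthetic triterpenoid that activates NRF2, at 30 nM for 4 h. Every sample's treatment text in the labels names CDDO-Im, so the groups rest on the sample titles. The 2 input samples were not analysed here.

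NRF2 is a transcription factor that the adaptor KEAP1 normally sends for degradation. Electrophiles such as CDDO-Im block KEAP1, and NRF2 then binds with small MAF proteins at antioxidant response elements near antioxidant and detoxification genes. Sodium and calcium channels carry the inward currents of excitable cells, and potassium channels set the resting potential and end the excitation. Microglia are not excitable in the way neurons are, but their potassium channels are known for setting membrane potential, motility and cytokine release. Peaks measure where NRF2 was cross-linked to DNA, not whether a channel is expressed, so the identity of the cells could not be checked against marker genes. The libraries come from bulk cells, so that stronger binding per cell and binding in more cells cannot be told apart.

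The core of the antioxidant response element is usually written TGACNNNGC. It was searched on both strands of the promoters of the channel genes, from 250 bases before to 50 after the start site, in the RefSeq table on GRCh38.p14. Of the 136 genes, 98 matched an entry. A single start site per gene was used, and 81 of the 98 lay at an end of the gene as listed. The core was found in 8 of these 98 promoters (8.16%), against 2262 of 15813 (14.3%) of all protein-coding genes in the table. Of the 8 matches, 7 are printed because they are places where these promoters spell the element that NRF2 is known to bind. Each is written 5′ to 3′ on the strand of the match, with the core in capitals.
KCNA6 (chr12:4809285-4809313, minus strand): actctccaagTGACGTGGCaggccccgcc
KCNE1 (chr21:34512310-34512338, plus strand): tcatgtggcaTGACCAGGCtggggcgtcg
KCNJ15 (chr21:38272461-38272489, minus strand): tctggggaacTGACTCAGCagggggaagc
KCNJ18 (chr17:21692535-21692563, minus strand): gacggaaagcTGACTGTGCccaagcctcc
KCNK2 (chr1:215005366-215005394, plus strand): aataaactttTGACAATGCagatctcttt
KCNN4 (chr19:43781177-43781205, minus strand): ccattgtgtgTGACAAAGCccatcgtgtg
SCN7A (chr2:166486923-166486951, plus strand): tcagctctaaTGACCTGGCcatgttggca
The KCNJ15 match also contains TGACTCA, the motif of AP-1 factors. No listed summit of any library lay within 15 kb of these 7 matches: the nearest were 15087 bp from the KCNK2 match and 15327 bp from the KCNE1 match. A match of these letters is a description and not a binding site.

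Peak lists were made per library and held between 4024 and 12433 peaks. Depth was judged from the genome-wide background of each library, the lowest number of tags expected under a peak summit, which lay between 0.315 and 0.367. Tags are the sequenced fragments stacked at a summit, recovered here from the deposited fold enrichment and p-value of each peak. In each list, the weakest peaks on chromosomes 1 to 22 and X rested on 4 tags. A site with fewer or only slightly more tags can go unlisted, so that absence from a list is not absence of NRF2. Nothing in the labels says that the libraries came from separate cultures, so their spread may be technical.

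The first comparison asked how many NRF2 peaks lay at channel genes with and without CDDO-Im. In their windows, vehicle 1 listed 9 peaks and vehicle 2 listed 9, whereas CDDO-Im 1 listed 26 and CDDO-Im 2 listed 37. Both CDDO-Im libraries thus lay above both vehicle libraries. The difference was 1.79 on the log2 scale, or 3.45-fold (exact permutation test, two-sided, p = 0.333, n = 2 and 2, the smallest p this design allows). In the windows of the other protein-coding genes, the libraries listed 688, 738, 1853 and 2785 peaks in the same order, a difference of 1.67 or 3.19-fold (exact permutation p = 0.333). The 2 differences were not tested against each other. Counted over the whole lists, the libraries held 4098, 7308, 3882 and 12244 peaks, and there the groups overlapped. Most peaks of vehicle 1, vehicle 2 and CDDO-Im 2, but not of CDDO-Im 1, came from dense megabases, those with more than 20 joined regions, and 0 of the 81 channel peaks lay in one. Without those megabases the lists held 1216, 1276, 3249 and 4795 peaks, and the groups did not overlap. At a −log10 q of 10 or more, vehicle 1 and vehicle 2 listed 0 and 2 channel peaks, and CDDO-Im 1 and 2 listed 9 and 12. In windows of other genes outside dense megabases, such peaks numbered 54, 111, 726 and 1228.

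**Figure D1:**
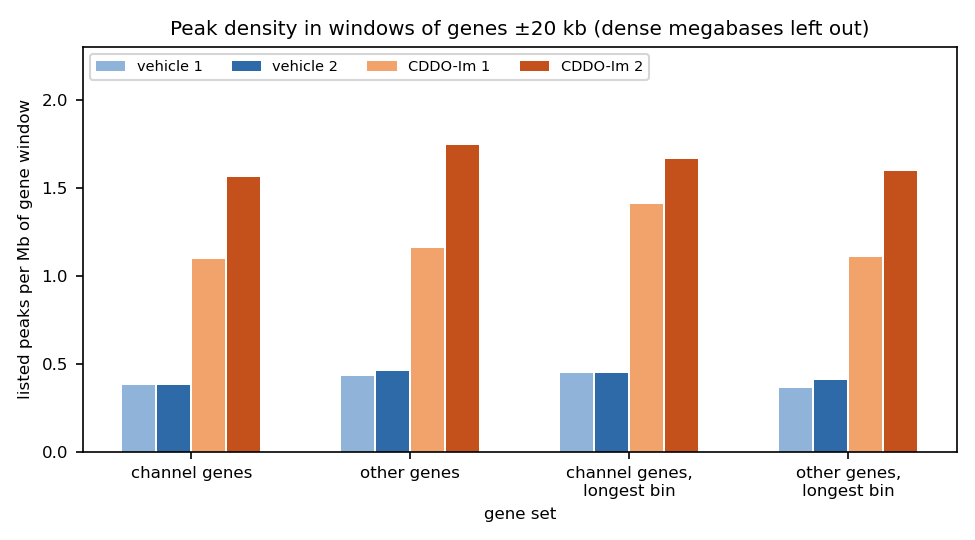
Listed peaks per megabase of gene window (the gene plus 20 kb on either side, overlapping windows merged) for channel genes, other protein-coding genes, and the longest length bin of each; 1 bar per library, and megabases with more than 20 joined regions are left out. Channel genes held 0.380, 0.380, 1.10 and 1.56 peaks per megabase in vehicle 1, vehicle 2, CDDO-Im 1 and CDDO-Im 2, against 0.431, 0.461, 1.16 and 1.74 for other genes.

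Per megabase of window, channel genes held somewhat fewer peaks than other genes in each library. The windows of the 136 channel genes covered 23.7 Mb when merged. They held 0.380 peaks per megabase in each vehicle library, against 0.431 and 0.461 for the other genes. With CDDO-Im the densities were 1.10 and 1.56 against 1.16 and 1.74. Among genes of the longest of 10 length bins, the channel genes lay higher than the others in every library, at 0.448, 0.448, 1.41 and 1.66 against 0.359, 0.410, 1.11 and 1.59 per megabase. The order of channel and other genes was thus the opposite of that over all lengths, and neither difference was tested.

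At the level of genes, 40 of the 136 (29.4%) had a peak in at least 1 library, where 20.5% of all protein-coding genes did. A vehicle 1 peak lay at 8 channel genes, where 4.16% of all genes had one, and a vehicle 2 peak at 8, where 4.55% had one. A CDDO-Im 1 peak lay at 19 channel genes and a CDDO-Im 2 peak at 27, against 10.4% and 14.8% of all genes. Channel genes are long, with a median of 57.5 kb against 24.1 kb for other protein-coding genes, and a long gene catches more peaks. Shares of the other genes in 10 bins of gene length, applied to the lengths of the channel genes, gave 8.15, 9.16, 21.0 and 28.8 genes for the 4 libraries in the same order and 39.1 genes for any library. The observed 8, 8, 19, 27 and 40 genes were thus between 0.874 and 1.02 times these values.

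The joined regions show which of the peaks recurred. Peaks of different libraries that overlapped by at least 1 bp were joined, and the 81 channel peaks formed 64 regions. Of these, 50 were listed by 1 library alone: 7 by vehicle 1, 8 by vehicle 2, 12 by CDDO-Im 1 and 23 by CDDO-Im 2. The other 14 were all listed by both CDDO-Im libraries, 11 of them by no vehicle library and 3 by 1 vehicle library. No region was listed by both vehicle libraries, and none by all 4. Over the genome outside dense megabases, 19.3% of regions had the pattern of the 11, and 0.0542% had the opposite one, with vehicle 1 and 2 alone.

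Agreement between replicates at channel genes was partial in CDDO-Im and absent in vehicle. Of the 26 channel peaks of CDDO-Im 1, 14 (53.8%, exact 95% binomial interval 33.4% to 73.4%) overlapped a CDDO-Im 2 peak, which is 14 of the 37 (37.8%) of CDDO-Im 2. In windows of other protein-coding genes outside dense megabases the shares were 66.2% and 44.0%. Of the 9 channel peaks of vehicle 2, 0 overlapped a vehicle 1 peak, which allows a share of up to 33.3%. The share in windows of other genes was 21.5%, so that a difference was not detectable at this depth. These intervals and limits cover counting error only.

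A region of both CDDO-Im libraries lay at 11 of the 136 channel genes (8.09%, exact 95% binomial interval 4.11% to 14.01%), where 7.3% of all protein-coding genes had one. The length bins gave 14.7 genes, so the observed number was 0.750 times that of genes of similar length. The count was 6 with peaks of a −log10 q of 10 or more. With a single CDDO-Im list it was 27 without CDDO-Im 1 and 19 without CDDO-Im 2. For regions of both CDDO-Im and neither vehicle library, the channel genes counted 10 against 10.3 from the length bins, where 4.85% of all genes had one. Regions of both vehicle libraries lay at 0 channel genes against 1.83 from the length bins, where 1.07% of all genes had one. Regions of all 4 libraries lay at 0 against 1.80, where 1.06% of all genes had one.

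The 11 genes were nearly all among the longest. In the longest bin, of genes from 152 kb to 2474 kb, such a region lay at 10 of 36 channel genes (27.8%, exact interval 14.2% to 45.2%), against 443 of 1962 other genes (22.6%). The channel genes of this bin were themselves longer, with a median of 371 kb against 249 kb. In the other 9 bins, 1 of 100 channel genes had one (1%, exact interval 0.0253% to 5.45%), where the bins gave 6.55 genes. That gene was SCN7A, and its region lay outside it, in a window shared with SCN9A. The split at the longest bin was not among the planned comparisons and was not tested. Its intervals treat genes as independent, although neighbouring genes can share a region. For peaks of any library, the 100 shorter channel genes had 18 against 19.0 from the bins, and the 36 longest had 22 against 20.2.

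**Figure D2:**
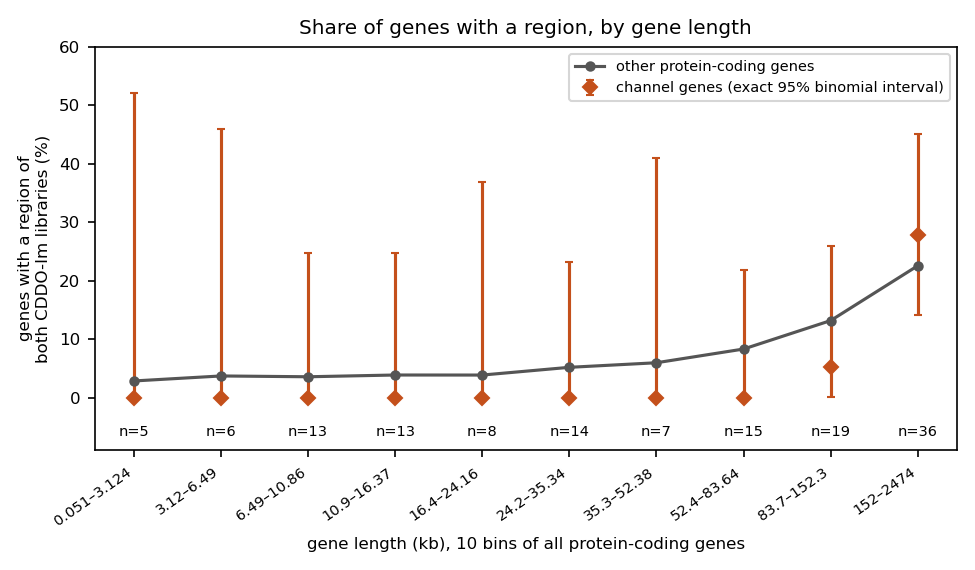
Percent of genes with a region shared by the CDDO-Im replicates (y axis) in 10 bins of gene length in kb (x axis), for channel genes (diamonds, exact 95% binomial interval, n below each) and other protein-coding genes (circles). In the longest bin 27.8% of channel genes and 22.6% of other genes had a region; among the shorter bins, the next longest alone held a channel gene with a region.

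Among the sodium channel pore subunits, which form the channels of the action potential upstroke, 7 of 10 genes had a peak. Of all protein-coding genes 20.5% had one, as did 56.0% of the other genes in the longest bin. The 10 genes had a median length of 136 kb. For subunit classes, the length-bin values cover shared regions only. A region shared by the CDDO-Im replicates lay at 4 of the 10 genes, against 1.71 from the length bins. These 4 genes shared 4 regions, since 1 region lay in the windows of both SCN9A and SCN7A. The 3 regions inside SCN9A, SCN8A and SCN2A were among the 4 highest of the channel genes by the lower CDDO-Im fold enrichment. No listed peak, and so no shared region, lay at any of the 4 sodium channel beta subunit genes, beside the 20.5% of all genes with a peak. The length bins gave 0.165 genes with a shared region for that class.

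SCN9A encodes the sodium channel of pain-sensing neurons. Its region (chr2:166357056-166357452) lay inside the gene, 18682 bp after the start site, and had 30 tags (CDDO-Im 1) and 37 tags (CDDO-Im 2). Neither vehicle library listed a peak there. The deposited fold enrichment was 21.0 and 25.2, with a −log10 q of 39.1 and 51.2, and the summits of the CDDO-Im libraries lay 7 bp apart. By the lower CDDO-Im fold enrichment it ranked 180 of 2468 regions held by both CDDO-Im libraries in the genome, dense megabases included. A weaker region (chr2:166393091-166393336), with 10 and 11 tags, lay 17240 bp outside SCN9A and 10346 bp outside SCN7A, an atypical sodium channel known for sensing sodium in body fluid.

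SCN8A encodes a sodium channel of the axon initial segment and the nodes of Ranvier. Its region (chr12:51773436-51773821), inside the gene and 182398 bp from the start site, held 6 tags in vehicle 2 and 25 and 34 in the CDDO-Im libraries, and was not listed in vehicle 1. Over the genome-wide background of each library these were 19.1 against 75.4 and 92.5, and both CDDO-Im libraries lay above the listed vehicle library. The mean of the CDDO-Im libraries was 4.40 times the vehicle 2 value. SCN2A, a main sodium channel of excitatory cortical neurons, had a region inside the gene (chr2:165357764-165358194), 118577 bp from the start site, with 18 tags in CDDO-Im 1, 46 in CDDO-Im 2 and no vehicle peak. The 46 tags were the most at any channel gene, and the replicates differed by more here than at SCN9A or SCN8A.

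Other peaks at sodium channel genes were each in 1 library. SCN2A had a further peak of 6 tags in CDDO-Im 1. SCN1A, a sodium channel of inhibitory neurons, and SCN11A, one of sensory neurons, had 6 tags each in CDDO-Im 1.

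**Figure D3:**
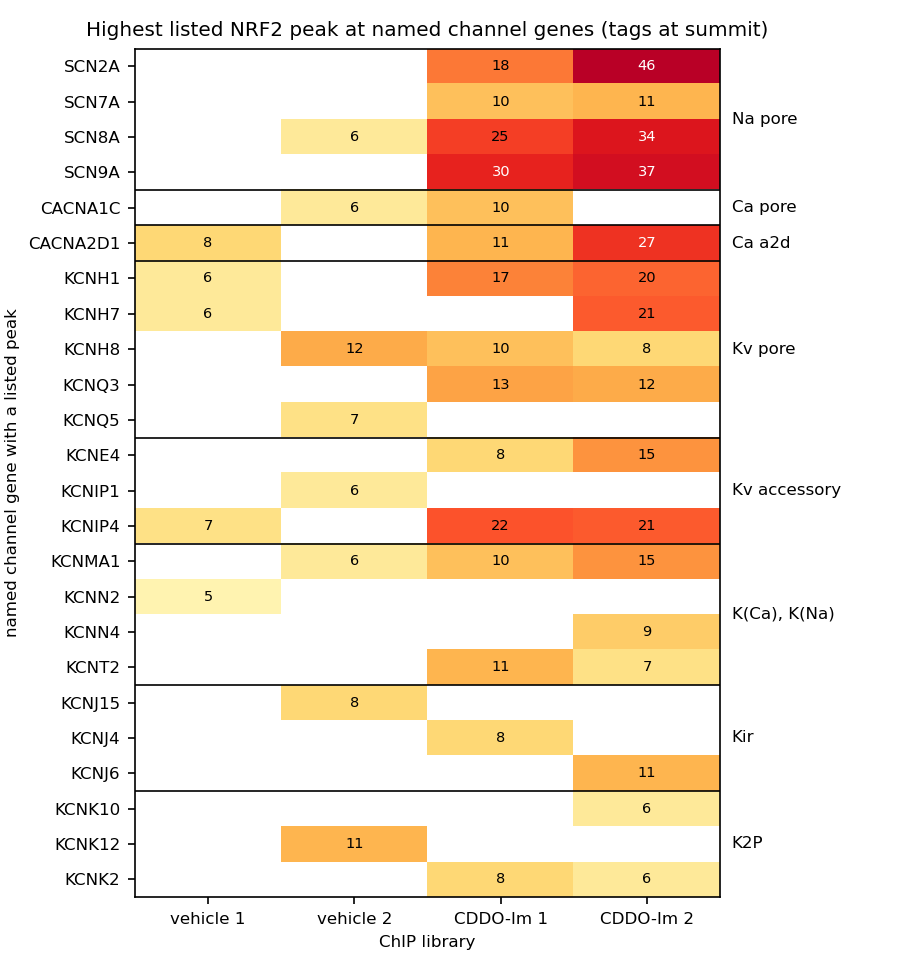
Tags at the summit of the highest listed peak in the windows of 24 of the 40 channel genes with a peak, those named by the rule under the processing (rows, grouped by subunit class) in the 4 libraries (columns); colour is on a log2 scale, and a blank cell means that no peak was listed. SCN2A, SCN8A and SCN9A have 18 to 46 tags in the CDDO-Im libraries, and no cell of a vehicle library exceeds 12 tags.

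Among calcium channel genes, CACNA2D1 and CACNA1C alone had peaks. The counts by class were small and were not tested. Of the 10 pore subunit genes, 1 had any peak, where 20.5% of all protein-coding genes did. A region shared by the CDDO-Im replicates lay at 0 of the 10, against 1.56 from the length bins. CACNA1C, the pore of the L-type channel of heart and brain, is 727 kb long and had 1 peak of 6 tags in vehicle 2 and another, at a different place, of 10 tags in CDDO-Im 1. None of the 4 beta subunit genes (CACNB) and none of the 8 genes of the gamma and AMPA receptor regulatory subunits (CACNG) had a peak. For classes this small, the share of 20.5% over all genes also leaves few genes with a peak. Regions shared by the CDDO-Im replicates were thus also 0 in both classes, where the length bins gave 0.542 and 0.612 genes with one. Among the 4 alpha2delta genes, which encode the accessory subunits that carry pore subunits to the membrane, CACNA2D1 alone had peaks. CACNA2D3, the second longest channel gene at 952 kb, had none.

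CACNA2D1, whose protein binds the drug gabapentin, had 3 regions inside the gene. The strongest (chr7:82204743-82205069) held 11 and 27 tags in CDDO-Im 1 and 2, with a fold enrichment of 9.01 and 19.3, and no vehicle peak. The second (chr7:82294275-82294558) held 8 tags in vehicle 1 against 11 and 15 in the CDDO-Im libraries, or 25.4 against 33.2 and 40.8 over background. The CDDO-Im mean there was 1.46 times the vehicle 1 value, the smallest ratio of the 3 regions listed under both treatments. The third was listed by CDDO-Im 2 alone, with 10 tags.

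Voltage-gated potassium channel pore subunits formed the largest class, and 11 of its 40 genes had a peak. Of all protein-coding genes, 20.5% had one. A region of both CDDO-Im libraries lay at KCNH1, KCNH8 and KCNQ3, against 4.12 genes from the length bins. KCNH1, of the ether-à-go-go family, had 2 such regions, both inside the gene. The first (chr1:210866567-210866895) held 17 and 19 tags and the second (chr1:211007839-211008191) 17 and 20, and the replicates were close at both. Neither was listed by a vehicle library, although vehicle 1 listed 2 weaker peaks elsewhere in KCNH1, of 5 and 6 tags. CDDO-Im 2 listed a further one of 7 tags.

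KCNH8, another ether-à-go-go relative, had a region shared by the CDDO-Im replicates (chr3:19168348-19168611) with 10 and 8 tags. Its strongest peak was a different one, of 12 tags, listed by vehicle 2 alone and the highest vehicle value at any channel gene. KCNQ3, a subunit of the M-current that damps repetitive firing, had a region (chr8:132176343-132176675) with 13 and 12 tags and 3 single-library CDDO-Im peaks of 6 to 8 tags. KCNH7, of the same family as KCNH1, had 21 tags at 1 place in CDDO-Im 2, which CDDO-Im 1 did not list, and weaker peaks of 5 tags in CDDO-Im 2 and 6 in vehicle 1 at other places. KCNQ5, 577 kb long, had peaks in vehicle 2 only, of 7 and 6 tags.

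Accessory subunits of voltage-gated potassium channels had peaks at 5 of 13 genes, against 20.5% of all protein-coding genes. KCNIP4, which encodes a calcium-binding partner of the KCND channels, is the longest channel gene at 1220 kb, and was the only 1 of the 13 with a region shared by the CDDO-Im replicates, against 1.28 from the length bins. Its strong region (chr4:21130563-21130991), 817958 bp from the start site, held 7 tags in vehicle 1 and 22 and 21 in the CDDO-Im libraries, or 22.2 against 66.3 and 57.2 over background. The CDDO-Im mean was 2.78 times the vehicle 1 value. A weak region (chr4:21137960-21138291) held 5 and 6 tags. KCNE3, a single-span subunit of several potassium channels, had 23 tags inside the gene in CDDO-Im 2 alone, the highest value of any single-library region. KCNE4 had 8 tags (CDDO-Im 1) and 15 tags (CDDO-Im 2), but at places that did not overlap. Both lay outside the gene, 12294 and 9300 bp from its nearer end.

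Calcium- and sodium-activated potassium channels had peaks at 8 of 12 genes, against 20.5% of all protein-coding genes. In CDDO-Im 2, 7 of the 12 had one, against 14.8% of all genes. The 12 genes were long, with a median of 123 kb against 24.1 kb for other protein-coding genes, and no length-bin value was computed for these 2 counts. Regions of both CDDO-Im libraries lay at KCNMA1 and KCNT2, against 1.67 genes from the length bins. KCNMA1, the pore of the large-conductance channel that is also found in microglia, had one inside the gene (chr10:77139803-77140115) with 10 and 15 tags and no vehicle peak. It also had single-library peaks of 5 tags in CDDO-Im 1, 7 in CDDO-Im 2 and 6 in vehicle 2. KCNT2, a sodium-activated channel, had a region (chr1:196573271-196573557) of 11 and 7 tags, with summits 101 bp apart. KCNN2, a small-conductance channel, had 5 tags in vehicle 1 and no CDDO-Im peak.

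Inward rectifiers and tandem-pore channels, which hold the resting potential, had no region in more than 1 library, where the length bins gave 1.14 and 1.16 genes with one of both CDDO-Im libraries. Of the 16 inward rectifier genes (KCNJ), 3 had a peak, where 20.5% of all protein-coding genes did. They were KCNJ4 with 6 and 8 tags in CDDO-Im 1, KCNJ6 with 11 in CDDO-Im 2 and KCNJ15 with 8 in vehicle 2. The summit of the stronger KCNJ4 peak lay 170 bp after the start site used for its promoter. That start site is inside the gene as RefSeq lists it, and the summit lay 11341 bp from the nearer gene end. This peak (chr22:38443732-38443980) reached only the edge of the promoter (chr22:38443979-38444278). It was the only 1 to touch any of the 98 channel promoters. Among all 15813 promoters of the table, a peak touched 22. Of the 15 tandem-pore genes (KCNK), 4 had peaks, of 6 to 11 tags, again beside 20.5% of all protein-coding genes. The highest, KCNK12 in vehicle 2, lay outside the gene, 2198 bp from its end.

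Of the potassium channels known in microglia, KCNA3, KCNJ2 and KCNK13 had no listed peak in any library. KCNN4, the intermediate-conductance calcium-activated channel, had 1 peak of 9 tags in CDDO-Im 2, which lay 9107 bp outside the gene and nearer to SMG9, at 2464 bp.

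The positions of the 14 regions of both CDDO-Im libraries are given as a description, since they depend on the window, on the length of these genes and on the overlap that joined the peaks. All 14 lay more than 10 kb from either end of the channel gene. Taking SCN9A for the region it shares with SCN7A, the smallest distance was 17240 bp and the median 90863 bp, and 13 lay inside the gene. The table gives no exons, so intron and exon positions were not determined. No other annotated gene, coding or noncoding, covered any of the 14 summits. The summits of the CDDO-Im libraries lay at most 125 bp apart, with a median of 14 bp. CDDO-Im 2 had more tags over background than CDDO-Im 1 in 9 of the 14.

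**Figure D4:**
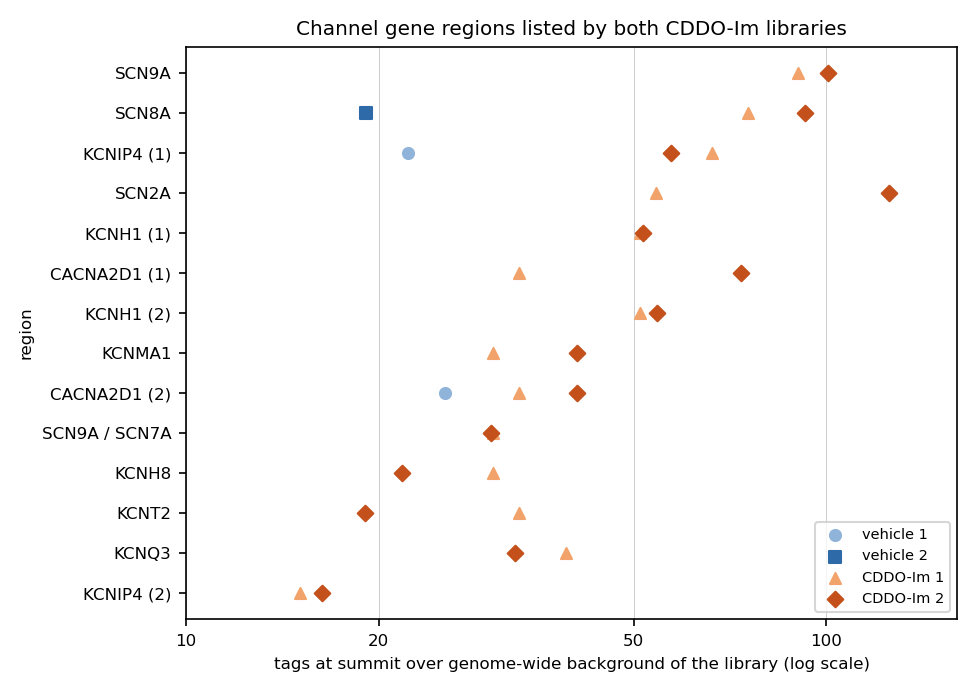
Tags at the summit over the genome-wide background of the library (x axis, log scale) in the 14 channel gene regions listed by both CDDO-Im libraries (rows, ordered by the lower CDDO-Im fold enrichment; numbers in brackets separate regions of 1 gene); no symbol means that the library listed no peak. In the 3 regions with a vehicle symbol, both CDDO-Im symbols lie to its right.

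In strength, the 14 regions were close to those elsewhere. The median number of tags was 12 (CDDO-Im 1) and 17 (CDDO-Im 2), against 13 and 19 in the 2102 other regions of both CDDO-Im libraries outside dense megabases. Of the 14, 11 (78.6%) had no vehicle peak, against 67.4% of the others. Both vehicle libraries listed 0 of the 14, which allows a share of up to 21.4%, against 10.9% of the others. In the 3 regions that 1 vehicle library also listed (at SCN8A, KCNIP4 and CACNA2D1), the vehicle value over background lay below both CDDO-Im values. The same held for 90.7% of regions elsewhere that were listed under both treatments. Since a vehicle library is missing from each of the 3, that order is partly set by the choice of regions. For a single region, the exact permutation test with all 4 libraries listed could not go below p = 0.333.

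Related genes outside the symbol rule were counted in 4 lists. Of 22 other excitability genes, 3 had a region shared by the CDDO-Im replicates, against 1.85 from the length bins. Among them, HCN4, a pacemaker channel, had 14 and 21 tags and no vehicle peak. Of 11 genes of calcium release and store-operated entry, 3 (MCU, RYR3 and STIM1) had one, against 1.97. STIM1, the calcium sensor of the endoplasmic reticulum, was listed by all 4 libraries: 15 and 9 tags in the vehicle replicates, 48 and 40 in those given CDDO-Im. Ion pumps and exchangers had 2 of 17 (ATP1B1 and ATP2B2) against 1.55. Proteins that associate with channels had 3 of 17 (ANK3, CNTNAP2 and DPP10) against 2.37.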

How the data were processed

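NRF2 ChIP-seq peak lists of 4 HMC3 libraries were used as deposited. The submitters' processing notes name MACS2 2.2.7.1, BWA 0.7.17 and bcl2fastq 2.15.0, and the builds GRCm38 and hg38; as the cells are human, positions were read as hg38. Which control and threshold were used, and how duplicates were treated, is not stated there. The deposited lists give, per peak, a fold enrichment (ratio) over local background, which is the authors' value, and the −log10 p and −log10 q. The deposited score equals the whole part of 10 times that −log10 q in 99.99% of peaks and was not used further. Regions of both CDDO-Im libraries were ordered by the lower of their 2 fold enrichments, which come from lists of different length, so the ranks are a description only.

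Tags at each summit were recovered from fold enrichment (tags plus 1 over background plus 1) and −log10 p (Poisson tail above the tags), allowing a relative error of 0.0002 and an absolute one of 0.001. Whole tags matched in 100% of peaks of each library, and 97.7% to 99.4% had a single match. The lowest recovered background of a library stood for its depth. Summits were assigned to coding genes as RefSeq lists them (GRCh38.p14). Counts at channel genes are set beside the share of all other genes in 10 equal-size bins of gene length, with no set test. Megabases with more than 20 joined regions were called dense. Intervals are exact (Clopper-Pearson) 95% binomial intervals. The upper limits given for counts of 0 are not exact: they are approximate, at 3 over the number counted.

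The channel genes, lists and tests were chosen with earlier results of these data known. Named are genes with regions of all 4 libraries, the 15 highest by lower CDDO-Im fold enrichment, vehicle-only regions of both libraries, 5 potassium channels known in microglia, the 5 longest and up to 3 per class by number of peaks. Further genes were named after their values were seen. Some genes and 1 promoter match are not reported here. Alternatives were window, q threshold, overlap rule, length bins, depth measure and left-out libraries. The computation (Python 3.11.15, scipy 1.17.1) was tested on simulated data.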

Additional observations from a re-analysis of the deposited data

How the results depend on the processing

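The direction of every result with a sign held under every alternative run. The difference in channel peak number (1.79 on the log2 scale) was 1.79, 1.75 and 1.91 with windows of 0, 10 and 50 kb, and between 1.53 and 2.04 when a library was left out, at an exact permutation p of 0.333 each time (n = 2 and 2, or 3 libraries). It could not be computed from peaks with a −log10 q of 5 or 10 and above, since vehicle 1 had 0 channel peaks there, and at those levels no region was listed under both treatments. Channel genes holding a region of CDDO-Im 1 and 2, 11 of 136, were 6 at the level of 10, and between 11 and 27 when a library was left out (27 without CDDO-Im 1 and 19 without CDDO-Im 2, which then need 1 list and not both). Regions of both CDDO-Im and neither vehicle library, 11, were 7 at the level of 10 and between 12 and 34 with a library left out (13 without vehicle 1, 12 without vehicle 2, 23 without CDDO-Im 2, 34 without CDDO-Im 1). Regions listed under both treatments and higher in both CDDO-Im libraries, 3 of 3, were 1 of 1 without vehicle 1 and 2 of 2 without vehicle 2, and none was listed by all 4 libraries. The observed number of genes over the value of similar length, 0.750, lay between 0.687 and 0.938 over all alternatives. It was 0.719 against the 100 genes nearest in length to each channel gene, a setting chosen after seeing the data. The region in the windows of SCN9A and SCN7A was not counted at 0 and 10 kb. KCNT2 lost its only shared region, and KCNIP4 1 of 2, at a −log10 q level of 5 and with summits within 100 bp. At the −log10 q level of 10, regions of both CDDO-Im libraries were no longer held by KCNMA1, SCN7A, KCNH8, KCNT2 and KCNQ3. With a replicate block on the numbers in the titles, the difference in peak number was 1.79 (1.53 in pair 1 and 2.04 in pair 2); nothing in the labels says that a number marks a shared culture. With 5 to 12 tags at most vehicle peaks, small differences in tags were not detectable at this depth.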
